A study of Homo sapiens with 3 samples.

Results

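Homologous recombination, Fanconi anaemia and replication checkpoint genes were examined in LNCaP cells in which the chimeric RNA SLC45A3-ELK4 was targeted by siRNA. The 39 listed genes were chosen by function, with earlier results of these data known. A gene was included where the platform annotation gave a probe set to it alone. This held for 34 of the 39, among 18417 genes in the whole table. BRCA2, RBBP8, FANCA, FANCD2 and ATRIP are not analysed here. The 34 genes were read by 37 probe sets, and several probe sets of 1 gene were averaged. All 34 lay above the lower limit set on dim genes (a mean of log2 5.12 over the 3 arrays), and they were tested within a set of 12892 genes.

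LNCaP is an established, androgen-responsive cell line from a human prostate carcinoma, and 1 negative control siRNA array was compared with 1 array each of siSE1 and siSE2, 72 hours after transfection with RNAiMAX in serum-containing medium. No other agent or genotype distinguished the groups. The comparison asks which genes change when the chimera, which joins 2 neighbouring genes, is targeted. One label field of the array titled siSE2 names siSE1; the title was followed, and under either reading the array belongs to the chimera siRNA group (n = 2 against 1).

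Homologous recombination repairs a double-strand break by copying the sister chromatid: the ends are resected to single strands, BRCA proteins load a recombinase, and the joined molecules are then dissolved or cut. The Fanconi pathway recognises crosslinked DNA at stalled forks, where its core complex attaches ubiquitin to FANCD2 and FANCI. The replication checkpoint, led by the kinases ATR and CHEK1, detects single-stranded DNA at slowed forks and holds back mitosis. Many of these genes are transcribed most strongly in late G1 and S phase, when E2F factors are active, so their level in a population of cells commonly follows the share of cells in cycle.

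Most of these genes read lower with both siRNAs, by modest amounts. Of the 34, 30 lay below the control on both siRNA arrays, against 41.7% of all genes tested, and 3 (BARD1, RAD50 and RMI2) lay above it on both, against 36.4%. ATR lay above it on one and below it on the other. The median difference, the mean of the siRNA arrays minus control on the log2 scale, was -0.36 over the 34 genes and -0.02 over all genes tested. It was -0.38 with siSE1 and -0.33 with siSE2, 2 comparisons that share the control array.

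FANCB, TIPIN and EXO1 fell (limma over all genes tested, adjusted p under 0.05), and none of the 34 rose. The 3 genes are 8.82% of the 34, where 0.714% of all genes tested fell and 0.248% rose. At an unadjusted limma p under 0.05, 19 of the 34 were lower and 1 was higher, where 11.3% of all genes were lower and 6.46% higher. At least 1.5-fold below the control with both siRNAs were 6 genes (FANCB, TIPIN, EXO1, CLSPN, RAD54B and FANCL), 17.6% of the 34 against 1.53% of all genes tested. None was 1.5-fold above it with both, against 0.582%. The limma fit has 1 residual degree of freedom, from the spread between siSE1 and siSE2. These are different siRNAs, so that spread mixes differences between the siRNAs with variation between transfections and arrays. Nothing in the labels tells whether the transfections were made on separate occasions. With no filter on dim genes the 3 calls were lost, as were the lower calls over all genes (0 of 18417), with limma adjusted p of 0.0991 for FANCB, 0.124 for TIPIN and 0.130 for EXO1; with the lower limit at the 50th percentile TIPIN (0.0503) and EXO1 (0.0537) did not pass and FANCB was not tested.

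**Figure D1:**
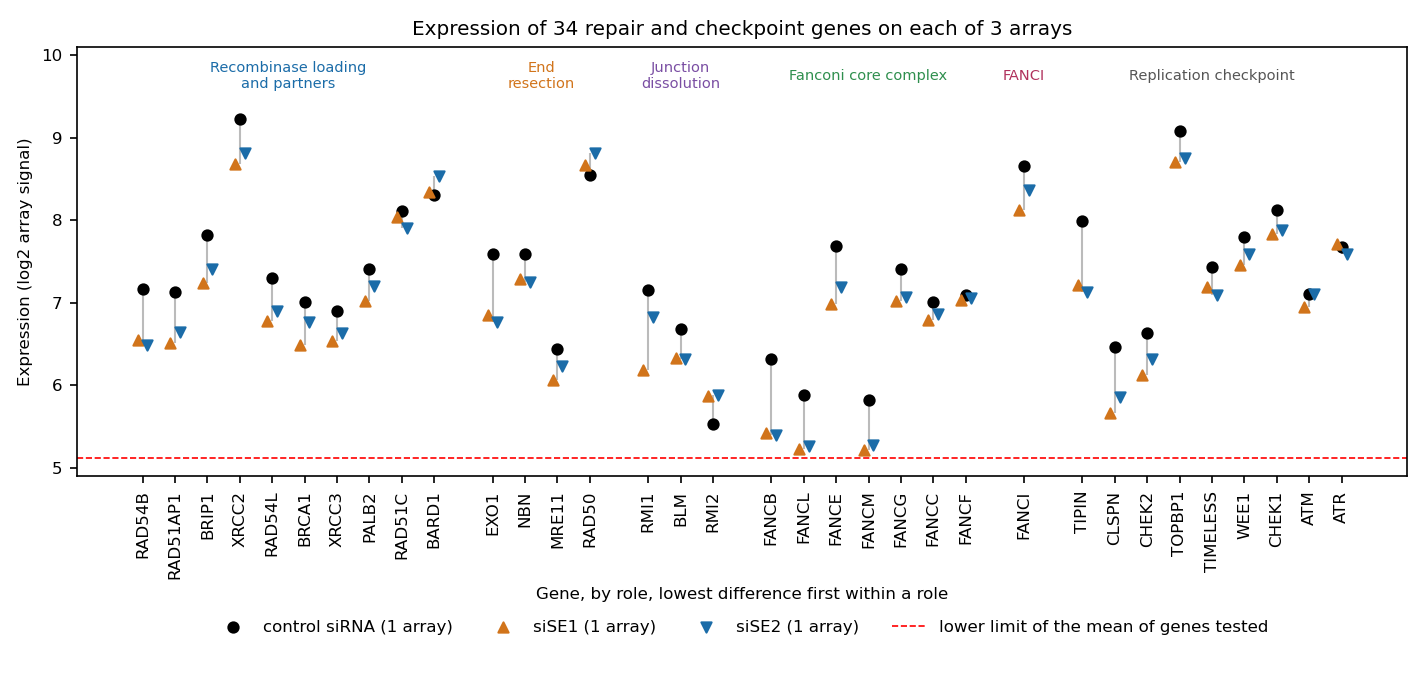
Log2 array signal (vertical axis) of the 34 genes, grouped by role, with 1 point for each array: control (circle), siSE1 (upward triangle) and siSE2 (downward triangle). The control lies above both siRNA arrays for 30 genes and below both for BARD1, RAD50 and RMI2, and the dashed line marks the lower limit of log2 5.12.

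The arrays were those of luminal prostate cells by their markers. Of 10 luminal markers listed, the 6 with a probe set (KLK2, KLK3, HOXB13, KRT8, KRT18 and EPCAM) ran from 8.77 to 10.24 on the control array. Markers of other cell types were dim: 12 basal, stromal and blood markers ran from 2.41 to 6.94 there, from 2.45 to 6.99 with siSE1 and from 2.47 to 6.97 with siSE2, and 7 of them lay below the lower limit. COL1A1, a collagen gene, was the brightest of these. SLC45A3, a parent gene of the chimera, read 9.66 in the control, 9.14 under siSE1 and 9.27 under siSE2, and ELK4 read 8.50, 8.45 and 8.20. SLC45A3 differed by -0.46 and ELK4 by -0.18, and neither passed (limma). Neither probe set resolves the chimeric junction, so these values do not show the level of the chimera.

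The Fanconi core complex is the ubiquitin ligase of the pathway. Its class of 7 genes, which leaves out some subunits, had the lowest median of the role classes that hold over 1 gene. The 7 (FANCB, FANCC, FANCE, FANCF, FANCG, FANCL and FANCM) had a median difference of -0.58. Each of the 7 lay below the control with both siRNAs, as did 41.7% of all genes tested. FAAP100, FAAP20 and FAAP24, further subunits, were listed with the other pathway genes. They differed by 0.28, 0.001 and -0.31, and none passed (limma). FAAP100 lay above the control with both siRNAs (0.54 and 0.03). FANCB, an X-linked gene whose protein pairs with the catalytic subunit, read 6.31 in the control, 5.42 under siSE1 and 5.40 under siSE2. The siRNA arrays lay close together and far below the control, a 1.88-fold fall (log2 -0.91 ± 0.14, SE; limma, adjusted p = 0.0280).

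FANCL, the catalytic RING finger subunit itself, read 5.88 in the control, 5.23 under siSE1 and 5.27 under siSE2. Its difference of -0.63 ± 0.14 (SE) did not pass (limma, adjusted p = 0.0704), and it did with quantile normalization (limma, adjusted p = 0.0484). FANCM, the DNA translocase that anchors the complex on chromatin, read 5.83, 5.22 and 5.27 in the same order, lower on average (log2 -0.58 ± 0.14, SE; limma, adjusted p = 0.0858). FANCB, FANCL and FANCM all read near the lower limit of log2 5.12 with both siRNAs.

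FANCE, the subunit that contacts FANCD2, was brighter, at 7.69 in the control, 6.99 under siSE1 and 7.20 under siSE2. Its difference was -0.60 ± 0.15 (SE; limma, adjusted p = 0.0929). FANCG, a scaffold subunit, differed by -0.36 and FANCC by -0.18. FANCF, an adaptor encoded by a gene without introns, read 7.10, 7.03 and 7.06, a difference of -0.05 with an unadjusted 95% interval from -0.37 to 0.27. Within this class of the complex's genes the differences thus ran from -0.91 to -0.05, and 1 of 7 passed, where 0.714% of all genes tested fell.

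FANCI, the partner of FANCD2 and substrate of the core complex, read 8.66 in the control, 8.13 under siSE1 and 8.37 under siSE2. Its difference of -0.41 ± 0.16 (SE) did not pass (limma, adjusted p = 0.212).

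Among genes of end resection, EXO1 fell, and the 3 genes of the MRE11 complex did not pass (limma). EXO1, the exonuclease that extends resection over long distances, read 7.59 in the control, 6.85 under siSE1 and 6.77 under siSE2. Both siRNA arrays were well below the control, a 1.72-fold fall (log2 -0.78 ± 0.14, SE; limma, adjusted p = 0.0428). MRE11, the nuclease that starts resection, differed by -0.29, and NBN, which recruits the complex to breaks, by -0.32. RAD50, the ATPase that tethers the ends, stood the other way, at 8.55, 8.67 and 8.82. Its difference of 0.19 had an unadjusted 95% interval from -0.14 to 0.52. The difference between EXO1 and these 3 was not tested.

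**Figure D2:**
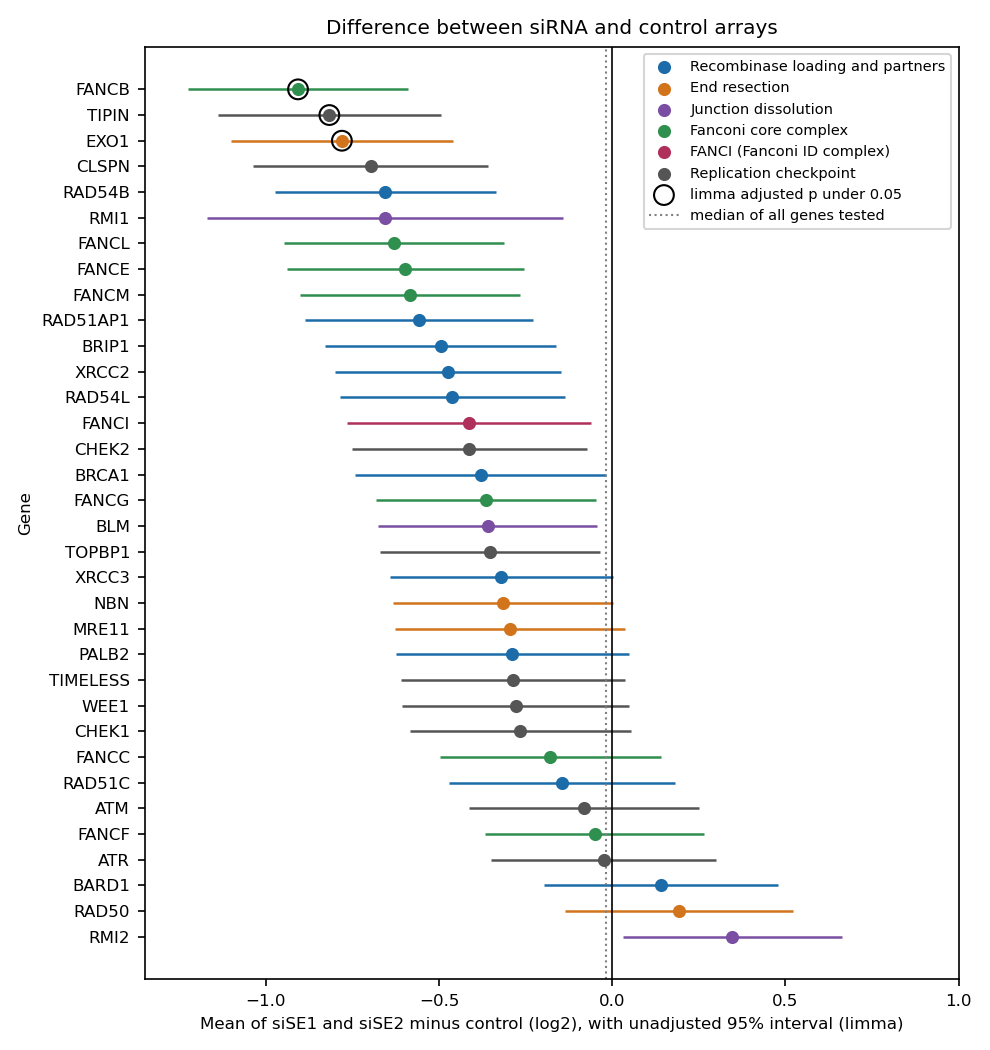
Difference between the mean of siSE1 and siSE2 and the control (horizontal axis, log2) for each of the 34 genes, coloured by role; lines are unadjusted 95% intervals from limma and open circles mark adjusted p under 0.05. FANCB at -0.91, TIPIN at -0.82 and EXO1 at -0.78 are circled, and RMI2 at 0.35 is the highest of the 34.

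The 9 replication checkpoint genes had a median of -0.29, and 1 of them, TIPIN, fell, against 0.714% of all genes tested. Among the proteins that act at the fork and as mediators, TIPIN, CLSPN, TIMELESS and TOPBP1 differed by -0.82, -0.70, -0.29 and -0.35. TIPIN, which binds TIMELESS at the moving fork, read 7.99 in the control, 7.22 under siSE1 and 7.13 under siSE2. Its fall was 1.76-fold (log2 -0.82 ± 0.14, SE; limma, adjusted p = 0.0382), and no siRNA reading came near the control.

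CLSPN encodes claspin, the mediator through which ATR activates CHEK1, and read 6.46 in the control, 5.66 under siSE1 and 5.86 under siSE2. Its difference of -0.70 ± 0.15 (SE) did not pass (limma, adjusted p = 0.0654). Its 2 probe sets gave similar differences, -0.68 and -0.72. The brighter of them read -0.54 with siSE2, so that CLSPN was not 1.5-fold lower with both siRNAs by that probe set alone. TIMELESS read 7.43, 7.19 and 7.09, so the partners TIPIN and TIMELESS did not differ from the control by the same amount, a contrast that was not tested.

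None of the 5 checkpoint kinases passed (limma), and CHEK2 alone was lower at an unadjusted p under 0.05, as were 11.3% of all genes tested. ATR, the apical kinase at stalled forks, read 7.67 in the control, 7.71 under siSE1 and 7.59 under siSE2. Its difference of -0.02 had an unadjusted 95% interval from -0.35 to 0.30, and its sign turned under quantile normalization (0.04) and cyclic loess (0.01). ATM, the kinase of double-strand breaks, differed by -0.08 (unadjusted 95% interval -0.41 to 0.25).

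CHEK1, the effector kinase of ATR, read 8.12, 7.83 and 7.89, a difference of -0.27, and CHEK2, the effector of ATM, 6.64, 6.13 and 6.32, a difference of -0.41. WEE1, the kinase that holds CDK1 inactive before mitosis, differed by -0.28. Its 3 probe sets gave -0.30, -0.10 and -0.44, all below the control but unequal.

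Genes that load and assist the recombinase had a median of -0.42 over 10 genes. In 9 of the 10 both siRNA arrays lay below the control, against 41.7% of all genes tested. None passed (limma), where 0.714% of all genes fell, and 6 were lower at an unadjusted p under 0.05, against 11.3%. RAD54B, a motor protein that remodels the recombinase filament, read 7.17 in the control, 6.54 under siSE1 and 6.48 under siSE2 (difference -0.66 ± 0.14, SE; limma, adjusted p = 0.0653). Its paralogue RAD54L read 7.30, 6.78 and 6.90, a difference of -0.46.

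RAD51AP1, which stimulates strand pairing, read 7.14 in the control, 6.51 under siSE1 and 6.65 under siSE2, a difference of -0.56. BRIP1, the helicase bound by BRCA1, read 7.82, 7.24 and 7.41, a difference of -0.49. XRCC2, a recombinase paralogue, differed by -0.47, XRCC3, another, by -0.32, and RAD51C, of the same family, by -0.15.

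BRCA1 and its obligate partner BARD1 stood on opposite sides of the control. BRCA1 read 7.01 in the control, 6.49 under siSE1 and 6.77 under siSE2, while BARD1 read 8.30, 8.35 and 8.54. Their differences of -0.38 ± 0.16 and 0.14 ± 0.15 (SE) did not pass (limma, adjusted p = 0.260 and 0.664), and the contrast between them was not tested. PALB2, which bridges the BRCA proteins, differed by -0.29.

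None of the 3 genes of the complex that dissolves joined molecules passed (limma). BLM, its helicase, read 6.68 in the control, 6.33 under siSE1 and 6.31 under siSE2, a difference of -0.36. RMI1, its scaffold, read 7.16, 6.18 and 6.82, so that siSE1 lay far below siSE2 and both below the control (difference -0.65 ± 0.23, SE; limma, adjusted p = 0.185). RMI2, the small subunit that binds RMI1, read 5.53, 5.87 and 5.88. Its difference of 0.35 ± 0.14 (SE) was the highest of the 34 genes and did not pass (limma, adjusted p = 0.244). The contrast among these genes was not tested. TOP3A, the topoisomerase of the same complex and one of the other pathway genes listed, read 8.19, 8.01 and 7.73, a difference of -0.32 (limma, adjusted p = 0.335).

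**Figure D3:**
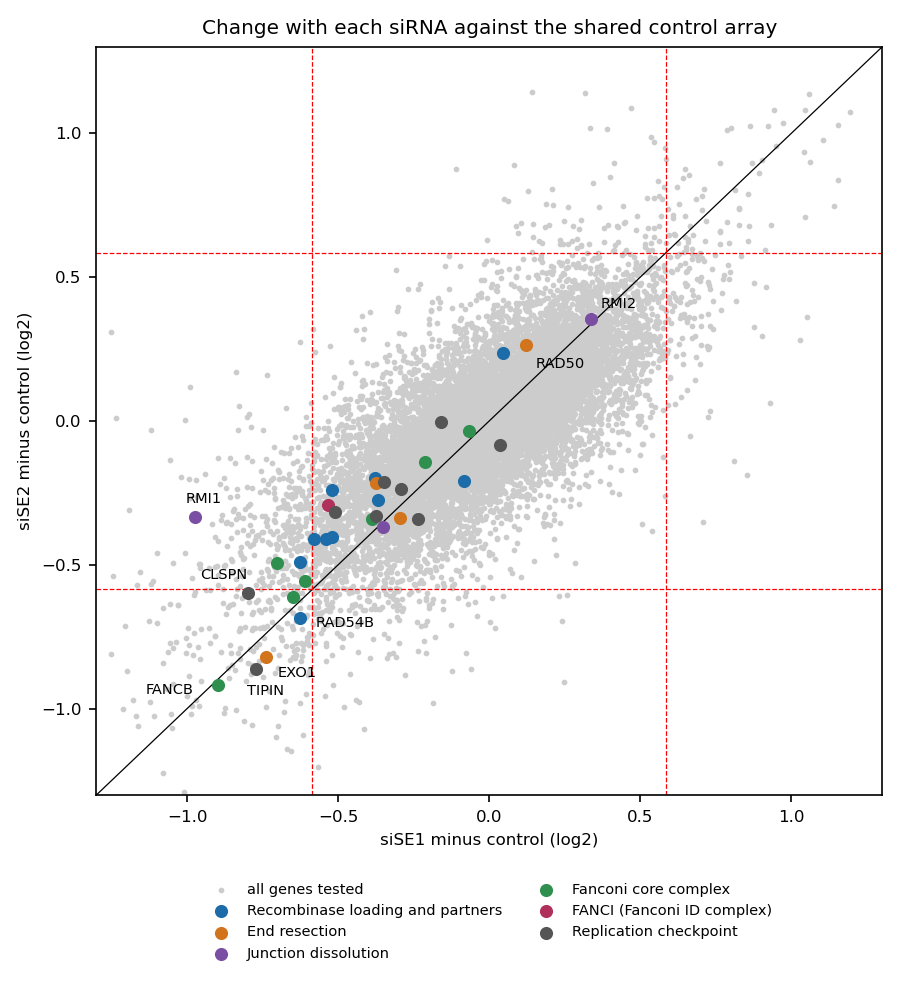
Log2 difference from the control with siSE1 (horizontal axis) and siSE2 (vertical axis) for all genes tested (grey) and the 34 genes (coloured by role); red dashed lines mark 1.5-fold and 27 genes lie outside the axes. Both axes share the control array, which alone makes points follow the diagonal; RMI1 lies off it at -0.97 and -0.33.

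For most of these genes siSE1 and siSE2 read close together; with 1 array each, their difference has no test. siSE1 read below siSE2 for 25 of the 34 genes, against 51% of all genes tested. With siSE1 alone 10 genes were at least 1.5-fold below the control, against 4.27% of all genes, and with siSE2 alone 6, against 2.82%. One gene, RMI1, was at least 1.5-fold apart between siSE1 and siSE2 (-0.64, log2), against 1.16% of all genes tested. The next widest gaps were -0.28 for BRCA1 and -0.24 for FANCI. Just inside the 1.5-fold limit with both siRNAs stood CLSPN, FANCL and RAD54B, with smaller changes of -0.60, -0.61 and -0.63. Just outside stood FANCM, FANCE and RAD51AP1, with -0.56, -0.49 and -0.49.

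Other genes of the same pathways, listed by function, were lower to a smaller extent. Of 61 listed, 57 had a probe set and 56 were tested, with a median difference of -0.18. This list and that of the 34 genes were made with earlier results of these data known, and no test compared them. Of the 56, 37 lay below the control on both siRNA arrays and 9 above, 1 fell and 1 rose (all genes tested: 41.7%, 36.4%, 0.714% and 0.248%). PKMYT1, the membrane-bound relative of WEE1 that also inhibits CDK1, read 7.46 in the control, 6.40 under siSE1 and 6.53 under siSE2 (log2 -0.999 ± 0.15, SE; limma, adjusted p = 0.0226, and 0.0927 with no filter). RPA1, the large subunit of the protein that coats single-stranded DNA, rose from 7.66 to 8.49 and 8.40. Its rise of 0.78 ± 0.14 (SE) passed (limma, adjusted p = 0.0428), but not with no filter (0.130), with a filter at the 50th percentile (0.0537) or with equal array medians (0.0639).

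Its partner subunits stood below the control, RPA2 by -0.18 and RPA3 by -0.25, neither passing. POLQ, the polymerase of an alternative end-joining route, read 7.64, 7.02 and 7.02, and USP1, the protease that removes ubiquitin from FANCD2 and FANCI, 7.66, 7.03 and 7.08, both without passing (limma, adjusted p = 0.0704 and 0.0765). HUS1, a subunit of the checkpoint clamp, read higher with both siRNAs (8.73, 9.09 and 9.05) while its partner RAD1 read lower (7.55, 7.23 and 7.14), and neither passed (limma, adjusted p = 0.246 and 0.230).

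The lists for repair routes that do not use a sister chromatid had medians nearer to that of all genes, while their counts below the control were higher than over all genes (41.7%). The 10 end-joining genes had a median of -0.08, 6 of 10 lay below the control with both siRNAs and 0 above, and 0 passed (limma; 2 lower at an unadjusted p under 0.05). POLQ, of an alternative end-joining route, was listed with the other pathway genes and is not among the 10 (difference -0.62). XRCC5 and XRCC6, the Ku subunits that bind broken ends, differed by 0.04 and -0.05, and XRCC4 and DCLRE1C by -0.51 and -0.52 without passing. The 23 excision and mismatch repair genes had a median of -0.09, 17 of 23 (73.9%) lay below the control with both siRNAs and 4 above, and 0 passed (limma; 3 lower at an unadjusted p under 0.05). Over all genes tested, 11.3% were lower at that unadjusted p. These medians and counts are descriptions, and no test compared the lists.

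Markers of proliferating cells stood lower as well. The 10 markers had a median of -0.40, 9 of 10 lay below the control with both siRNAs, and 0 passed (limma; 7 lower and 0 higher at an unadjusted p under 0.05). Over all genes tested, 41.7% lay below with both, and 11.3% were lower and 6.46% higher at that unadjusted p. MKI67 read 9.22 in the control, 8.62 under siSE1 and 8.47 under siSE2, and CCNA2 9.05, 8.57 and 8.47. CDK1, which acts at mitotic entry, did not share this, at 8.08, 8.06 and 8.23. In whole-culture RNA, fewer cells in S phase and less RNA per cell cannot be told apart, and the part of cell cycling in the lower repair genes was not tested.

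**Figure D4:**
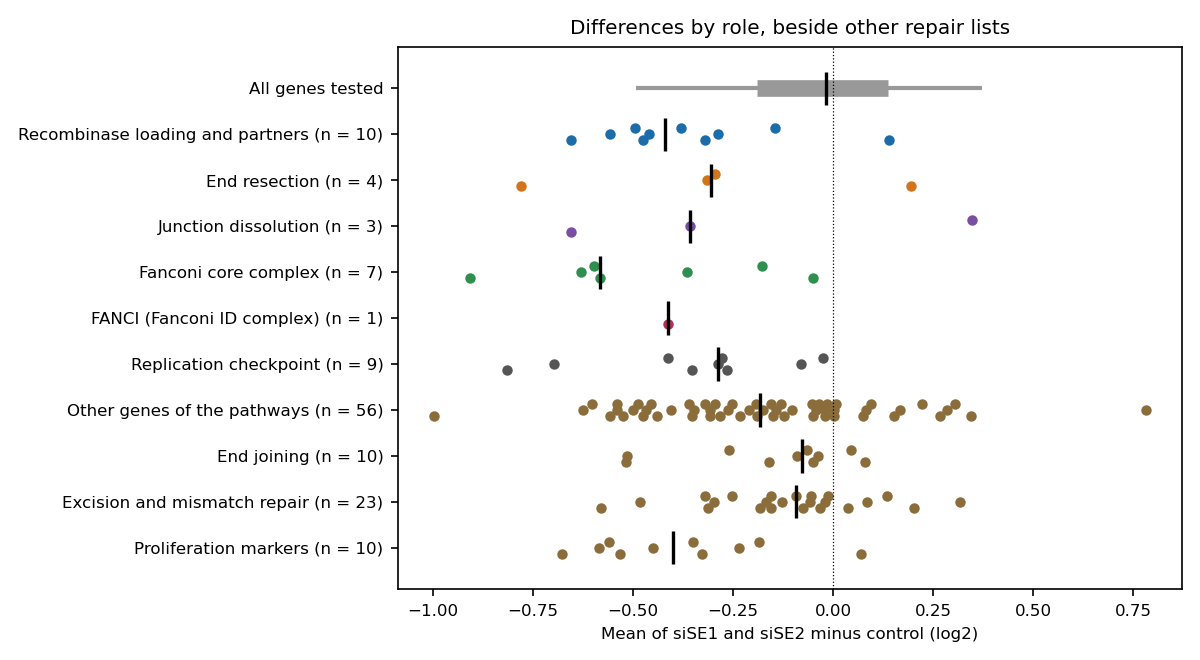
Difference between the mean of siSE1 and siSE2 and the control (horizontal axis, log2): each point is a gene, black bars are medians, and for all genes tested the thick line spans the middle quartiles and the thin line the 5th to 95th percentile (-0.49 to 0.37). The Fanconi core complex class, without the FAAP subunits, has a median of -0.58, the proliferation markers -0.40, end joining -0.08 and all genes -0.02.

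RefSeq promoter windows (GRCh38.p14, 250 bases before to 50 after a start site) were searched on both strands for E2F-type letters. The search was made with the lower readings of these genes known. The letters were TTTCCCGC, TTTGGCGC, TTCCCGCC or TTGGCGCC (TTTCCCGC can overlap TTCCCGCC, and TTTGGCGC can overlap TTGGCGCC). Of the 34 genes, 29 had at least 1 window, and 11 of the 29 (37.9%) held a match, as did 10.3% of the 10244 genes tested that had a window. By window, 13 of 39 held one, against 5.30% of all 35116. The 100 bases from 90 before to 10 after the start are shown for 5 of the genes with the letters in that stretch and for EXO1 and FANCB, which fell, with E2F-type letters in capitals and 1 window for a gene that has several. BRIP1, XRCC3, BLM and FANCC also hold the letters in that stretch and are not shown. Their differences were -0.49, -0.32, -0.36 and -0.18.
TIPIN, chr15:66356676-66356775, minus strand: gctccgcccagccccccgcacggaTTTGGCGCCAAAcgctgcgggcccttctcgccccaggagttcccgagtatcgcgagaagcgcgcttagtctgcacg
CLSPN, chr1:35769969-35770068, minus strand: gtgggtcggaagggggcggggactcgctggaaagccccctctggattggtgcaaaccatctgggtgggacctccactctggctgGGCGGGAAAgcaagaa
RAD51AP1, chr12:4538800-4538899, plus strand: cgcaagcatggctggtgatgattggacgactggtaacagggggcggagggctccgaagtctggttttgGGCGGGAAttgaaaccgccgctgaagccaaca
RAD54L, chr1:46247598-46247697, plus strand: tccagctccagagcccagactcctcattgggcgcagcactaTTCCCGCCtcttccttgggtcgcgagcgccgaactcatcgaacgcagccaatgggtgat
RMI1, chr9:83980715-83980814, plus strand: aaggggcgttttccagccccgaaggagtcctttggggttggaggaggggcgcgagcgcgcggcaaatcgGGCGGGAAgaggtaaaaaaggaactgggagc
EXO1, chr1:241848114-241848213, plus strand: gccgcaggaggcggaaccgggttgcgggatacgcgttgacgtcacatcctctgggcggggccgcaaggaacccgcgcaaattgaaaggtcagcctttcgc
FANCB, chrX:14873060-14873159, minus strand: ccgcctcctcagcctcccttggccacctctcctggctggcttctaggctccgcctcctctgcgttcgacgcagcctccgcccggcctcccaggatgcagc

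TIPIN held the fullest match, in which forward and reverse letters overlap from 66 bases before the start, while CLSPN, RAD51AP1 and RMI1 carried the reverse-strand form and RAD54L the forward form. Of the other genes with a match, BLM, XRCC2, XRCC3 and BRIP1 had theirs within 75 bases of a start, FANCL at 99 bases before it, and FANCC had matches in both of its windows. EXO1 and FANCB, which fell as TIPIN did, held none of these letters in their windows. The 11 genes with a match had a median difference of -0.49 and ran from -0.82 to -0.18; the 18 without ran from -0.91 to 0.19, with a median of -0.29. Among all genes tested the medians were -0.07 with a match and -0.02 without. The CHR letters TTTGAA or TTCGAA, bound by the complex that silences cell cycle genes outside cycle, were found in windows of 3 of the 29 genes (10.3%), against 14.8% of genes tested. By window, 3 of 39 held them (7.69%), against 16.4% of all windows. CCAAT was found in 17 of the 29 genes (58.6%), against 42.2% of genes tested. By window, 21 of 39 held it (53.8%), against 34.6% of all windows. The matches are descriptions of these windows and were not tested.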

How the data were processed

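The authors deposited 1 table of 33297 probe sets by 3 arrays as log2 values which, per the submitters' processing notes, came from Affymetrix Expression Console. The algorithm, background correction and genome build were not given in the sources used here, and the log2 scale was taken from the range of the values (1.43 to 13.9). The platform annotation named 1 gene for 19460 probe sets, several for 1754 and left 12083 unnamed; 19429 of the 19460 matched a GRCh38.p14 gene table by identifier, used for names only. Probe sets of a gene were averaged, genes with a mean below the 30th percentile (5525) were left out, and 12892 genes were tested with limma 3.58.1 (lmFit and eBayes, R 4.3.3; siSE1 and siSE2 against control, 1 residual degree of freedom, 8.46 prior degrees of freedom), adjusted by Benjamini-Hochberg over all genes tested at a threshold of 0.05. The fit assumes that the control array varies like the siRNA arrays, and the number of arrays limits the precision. SE is the moderated standard error. The fit was tested on simulated data. A fold limit of 1.5 with both siRNAs was counted beside it, with no test.

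The members and lists were chosen with earlier results of these data known. All members could be named; values on every array were given for those that passed, those past or near 1.5-fold with both siRNAs, those farthest apart between siRNAs, those highest with both, and other members where a role is described. From other lists up to 4 genes with the largest smaller change were eligible. RPA2, RPA3, HUS1, RAD1, TOP3A, DNA2, FAAP100, FAAP20, FAAP24, XRCC5, XRCC6 and CDK1 were added with their values known. The alternatives were normalization, the filter, the probe set rule, the variance prior, the thresholds and leaving out each siRNA array.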

Additional observations from a re-analysis of the deposited data

How the results depend on the processing

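The differences of the 34 genes, 3 of them upward, held their direction under each alternative tried except for ATR, while the calls depended on the filter. Under quantile normalization and cyclic loess ATR turned to 0.041 and 0.014, and with siSE1 alone it was 0.03. ATM stayed lower on average under these normalizations, but its siSE2 reading turned to 0.031 and 0.012 above the control. The count of 3 fallen genes became 0 with no filter on dim genes, where 0 of all 18417 genes fell (limma). It was also 0 with the 50th percentile as the lower limit, where 20 of all 9209 genes fell (0.217%). That limit left 28 of the 34 genes. At an unadjusted limma p under 0.05, 18 were lower with no filter (8.16% of all genes) and 17 with the 50th percentile (13.1%). The 1.5-fold count at the 50th percentile was 3 (1.64% of all genes), since FANCB, CLSPN and FANCL were not tested there. The 1.5-fold count was 5 with the brightest probe set of each gene (1.55%), where CLSPN dropped out. It was 7 with quantile normalization (1.41%), equal array medians (1.98%) or cyclic loess (1.54%), where FANCM joined. Across the settings of the fit in which each was tested the adjusted p (limma) ran from 0.0161 to 0.0991 for FANCB, from 0.0330 to 0.124 for TIPIN and from 0.0348 to 0.130 for EXO1. With a threshold of 0.1 on the adjusted p, 9 genes were lower (2.82% of all genes tested). At the smaller of the other fold limits tried (log2 0.32), with both siRNAs 16 genes were lower and 1 higher (all genes tested: 8.02% and 4.27%), and at a limit of 2 the count was 0 (0.101% of all genes lower). With 1 siRNA array left out, the 1.5-fold count ran from 6 to 10 lower (10 with siSE1 alone), against 2.82% and 4.27% of all genes tested. The median then ran from -0.38 to -0.33. The median was -0.40 with equal array medians, where the median of all genes moved to -0.06. The number of arrays, 1 of them the control, limits the precision. No paired analysis was possible because the control group holds 1 array.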

Other observations

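PARP1, which binds nicked DNA, read 9.82 in the control, 9.28 under siSE1 and 9.20 under siSE2 (log2 -0.58 ± 0.14, SE; limma, adjusted p = 0.0869), and MSH6, a mismatch recognition protein whose gene is active in S phase, read 6.87, 6.48 and 6.30 (-0.48 ± 0.15, SE; limma, adjusted p = 0.142). APEX1, the endonuclease of base excision repair, read higher with both siRNAs, at 11.05, 11.39 and 11.34 (0.32 ± 0.14, SE; limma, adjusted p = 0.283). PMS1, a mismatch repair partner, read 8.34, 8.01 and 8.02. None of these 4 genes passed.

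ATRIP, the partner through which ATR binds coated single-stranded DNA, shares its probe set with TREX1, an exonuclease gene. That probe set read 6.96 in the control, 6.88 under siSE1 and 6.91 under siSE2, and cannot be assigned to either gene.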
